A study of Mus musculus with 22 samples.

Results

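Shear-responsive endothelial genes are the genes with which the cells lining a vessel answer the drag of flowing blood. The set described here held 9 genes, chosen by name and found as rows in every file, of 55376 genes counted: Klf2, Klf4, Nos3, Ptgs1, Thbd, Heg1, Slc9a3r2, Cyp1b1 and Edn1. RNA was measured in sorted cells of mouse embryos at E12.5, and levels are CPM, read counts brought to a common library total with TMM scaling. For the regional series, Kdr::Cherry endothelial cells of wild-type embryos came from the spinal cord itself (5 libraries, of which batches 1 to 3 were ventral cord and batches 4 and 5 whole cord) or from the surrounding meninges (5 libraries). In the knockout series, spinal cord with its meninges was taken from wild-type or Plxnd1-KO embryos and sorted into Kdr::Cherry endothelial cells and Isl1::GFP motor neurons, in 3 batches of each. Embryos were pooled by genotype in all groups, so each library is a pool and not 1 animal, p-values measure the spread between these pools, and the labels do not say in which cells Plxnd1 was deleted. Isl1 is a transcription factor gene of motor neurons, Kdr encodes the main VEGF receptor of endothelial cells, and Plxnd1 encodes a semaphorin receptor that is also a sensor of shear in endothelial cells. A library labelled wild-type endothelial cells of batch 2 was identical to knockout batch 1 in all 55376 genes and was left out, which leaves 21 of 22 libraries and n = 2 for wild-type endothelial cells.

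Flow is sensed at the cell junction by PECAM1, VE-cadherin and VEGF receptors, and at the surface by plexin D1 and the PIEZO1 channel. The signal passes through the kinases MEKK3, MEK5 and ERK5 to MEF2 factors, which bind the Klf2 promoter, and the zinc finger factors KLF2 and KLF4 then raise genes that keep a vessel open, quiescent and free of clots. HEG1, a transmembrane partner of the CCM protein complex that restrains MEKK3, is itself a flow-raised gene, and endothelin-1 is lowered by sustained flow. At this embryonic stage vessels that entered the spinal cord from the plexus around it are being remodelled.

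The upstream sequences of 4 genes are shown because they hold a MEF2 motif or the sequence GAGACC, the rarer 2 of the 3 motifs searched. RefSeq windows on GRCm38.p6 matched 7 of the 9 genes, in 8 windows of 250 bases before the transcript start. Nos3 and Thbd had no entry. Capitals mark a MEF2 motif, the sequence GAGACC, first described as a shear stress response element, or CACCC, the core that KLF factors bind, each on either strand (GGTCTC and GGGTG on the other). The Klf2 sequence (chr8:72318812-72319032, plus strand) and the Heg1 sequence (chr16:33684216-33684369, plus strand) end where the annotated exons begin, which leaves out a CACCC match of Klf2 at -19 to -15 and 1 of Heg1 at -50 to -46. The Edn1 sequence is chr13:42301226-42301475 on the plus strand, and the Cyp1b1 sequence chr17:79715062-79715311 on the minus strand.
Klf2: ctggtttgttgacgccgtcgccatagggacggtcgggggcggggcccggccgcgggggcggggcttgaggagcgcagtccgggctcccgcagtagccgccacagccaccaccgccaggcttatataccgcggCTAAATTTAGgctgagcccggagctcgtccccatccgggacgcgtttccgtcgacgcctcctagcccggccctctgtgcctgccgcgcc
Heg1: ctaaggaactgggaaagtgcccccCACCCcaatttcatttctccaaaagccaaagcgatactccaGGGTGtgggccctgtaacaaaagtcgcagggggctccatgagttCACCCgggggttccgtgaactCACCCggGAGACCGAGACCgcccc
Edn1: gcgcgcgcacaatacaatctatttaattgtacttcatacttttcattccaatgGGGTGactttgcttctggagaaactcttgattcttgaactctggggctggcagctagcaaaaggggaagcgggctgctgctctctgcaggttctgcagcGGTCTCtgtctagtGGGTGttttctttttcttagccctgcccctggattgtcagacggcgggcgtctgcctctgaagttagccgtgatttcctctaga
Cyp1b1: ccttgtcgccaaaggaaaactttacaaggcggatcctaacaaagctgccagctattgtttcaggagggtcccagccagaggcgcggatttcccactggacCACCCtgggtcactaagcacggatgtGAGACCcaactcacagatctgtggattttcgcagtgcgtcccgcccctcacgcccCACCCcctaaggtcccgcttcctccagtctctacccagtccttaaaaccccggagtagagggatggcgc
Klf2 held the MEF2 motif, at bases -118 to -109 from the RefSeq start, and it was the 1 window of the 8 that did. Heg1 held 2 copies of GAGACC in tandem at -113 to -108 and -107 to -102, Edn1 held it on the minus strand at -98 to -93, and Cyp1b1 held it at -124 to -119. Over 32851 windows of the same length, the MEF2 motif was in 2.92%, GAGACC in 13.7% and CACCC in 52% of them. CACCC was in 6 of the 8 windows, among them both windows of Slc9a3r2, which are not shown. Klf4 and Ptgs1 had no match to any of the 3. These are matches of letters and no measure of binding.

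In the knockout series each of the 9 genes was higher in wild-type endothelial cells than in motor neurons, where 12484 of 19266 genes tested (64.8%) differed and 33.8% were higher. Cyp1b1, which encodes a cytochrome P450 raised by laminar flow, was 198 and 226 CPM in the endothelial libraries and 0.805 to 1.995 CPM in the 3 motor neuron libraries. Its log2 difference was 7.37 (SE 0.36, adjusted p = 9.4e-08 by edgeR). Thbd, Klf2, Ptgs1, Nos3, Klf4 and Heg1 followed with log2 differences of 6.02, 5.70, 5.67, 5.03, 4.86 and 4.06. Slc9a3r2 and Edn1 differed least, at 2.47 and 2.38. Slc9a3r2, the scaffold protein NHERF2, was the member with a clear level in neurons, 14.4 to 15.8 CPM in wild-type and 13.2 to 21.1 CPM in knockout motor neurons. The other 8 genes stayed at or below 9.88 CPM there. All 9 had levels in the endothelial libraries above every motor neuron library, as did 78.9% of all genes in 1 direction or the other.

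**Figure D1:**
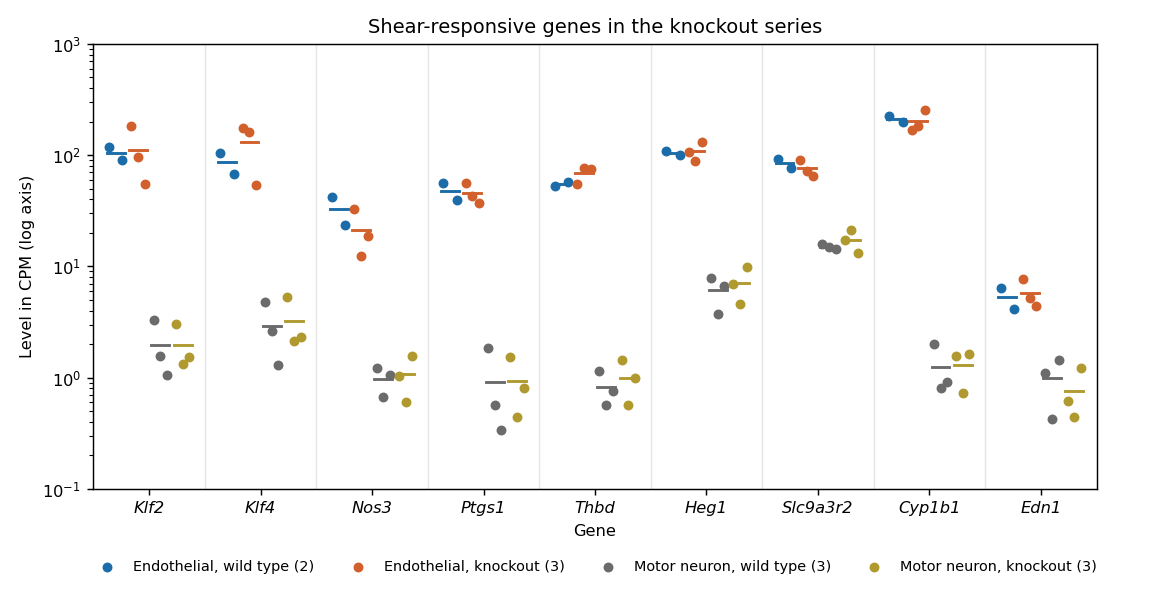
Level of each gene in CPM (log axis) in every library of the knockout series, with wild-type (2) and knockout (3) endothelial cells and wild-type (3) and knockout (3) motor neurons as points and group means as bars. All 9 genes are higher in endothelial cells, and the wild-type and knockout points overlap for every gene in endothelial cells.

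Library totals were 15685784 to 21493255 reads in the regional and 20680902 to 27035395 in the knockout series. Motor neuron markers summed to 519 to 1586 CPM in the sorted motor neurons and to 57.4 to 102 CPM in the endothelial libraries of that series. The endothelial sort also held RNA of other cells. The 12 endothelial markers summed to 2300 to 4860 CPM in spinal and 1160 to 2399 CPM in meningeal libraries. The 10 fibroblast markers summed to 1320 to 2661 CPM and 14696 to 21750 CPM in the same groups, and the 10 macrophage markers to 1141 to 3504 CPM and 1374 to 2700 CPM. Erythroid and platelet genes summed to 4464 to 45851 CPM and 7389 to 54212 CPM. Genes of neural progenitors and neurons summed to 1232 to 2227 CPM and 453 to 621 CPM, of which Nes, a progenitor gene, averaged 440 and 331 CPM. Endothelial markers, among them Kdr, whose reporter was used for the sort, were higher in spinal libraries for 9 of 12 genes (median log2 difference 1.501), and fibroblast markers lower for 10 of 10 (median -3.41). In the endothelial libraries of the knockout series, endothelial markers summed to 808 to 1660 CPM and fibroblast markers to 15303 to 17657 CPM. In bulk RNA, fewer cells of a type and less RNA per cell cannot be told apart. Regional values are therefore given on the CPM scale and also after scaling each library to its summed endothelial markers, a scaling added after the data were seen. The second scale moves the median of all genes from 0.01 to -1.31, a shift of -1.32 on the log2 scale.

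On the CPM scale, 6 of the 9 genes differed between spinal and meningeal endothelial cells. Nos3, Edn1, Heg1 and Ptgs1 were higher in the spinal cord, by 3.32, 3.19, 2.08 and 1.99 fold, and Cyp1b1 and Thbd were higher in the meninges, by 15.0 and 2.29 fold. On the endothelial scale Cyp1b1 and Thbd were again lower in the cord, Nos3 and Edn1 did not pass, and Heg1 and Ptgs1 changed sign without passing. Klf2, Klf4 and Slc9a3r2 did not pass on the CPM scale, and all 3 were lower in the cord on the endothelial scale. Of 16213 genes tested, 47.8% were called on the CPM scale, 24.8% higher and 23% lower, beside which 4 higher and 2 lower of 9 is no result particular to these genes. With the batch as a block the same counts of 4 and 2 were called, beside 45.2% of all genes. The median log2 difference was 0.53 over the 9 genes and 0.01 over all genes. On the endothelial scale 83.3% of genes were called, 77.2% lower and 6.11% higher, and of the 9 genes 0 were higher and 5 lower.

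**Figure D2:**
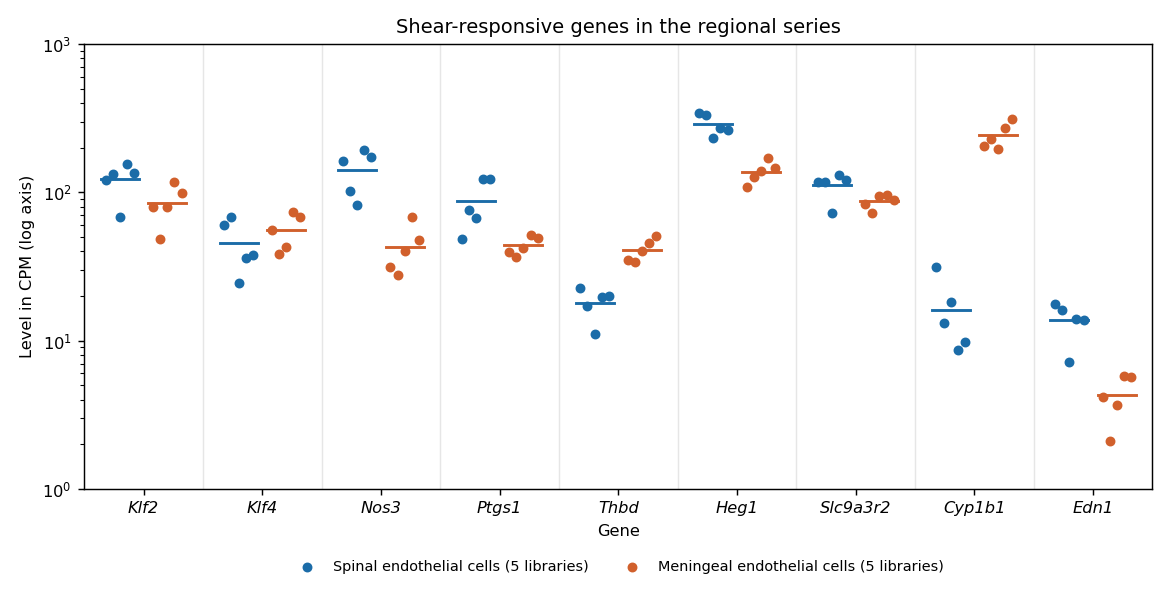
Level of each gene in CPM (log axis) in the 5 spinal and 5 meningeal endothelial libraries, as points in order of batch, with group means as bars. Spinal points lie above all meningeal points for Nos3, Heg1 and Edn1 and below all of them for Thbd and Cyp1b1, and the groups overlap for the other 4; on the scale of endothelial markers the differences of Nos3, Edn1, Heg1 and Ptgs1 do not pass, and the last 2 change sign.

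Klf2 (chr8:72319033-72321656 on mm10, the build used throughout), the flow-induced factor with which the program begins, was at 122, 132, 68.4, 154 and 134 CPM in spinal libraries of batches 1 to 5. In meningeal libraries it was at 79.9, 48.4, 79.5, 117 and 98.5 CPM. Spinal batch 3 was the lowest of its group, and the groups overlapped. Spinal Klf2 was higher in 4 of 5 batches, with a log2 difference of 0.53 (SE 0.23, 95% interval 0.03 to 1.03, adjusted p = 0.078 by edgeR). Without spinal batch 3 it passed (0.66, adjusted p = 0.013), as it did without meningeal batch 4 (0.66, adjusted p = 0.04) and in batches 4 and 5 alone (0.44, adjusted p = 0.0022). In the last of these fits 8793 genes were called. Per endothelial marker the order turned around. For each 1000 CPM of summed endothelial markers, Klf2 was at 28.1, 34.8, 29.8, 31.7 and 28.5 CPM in spinal and 66.6, 41.7, 56.4, 48.6 and 58.2 CPM in meningeal libraries. These values did not overlap, and the log2 difference on that scale was -0.83 (SE 0.25, adjusted p = 0.004). On that scale 77.2% of all genes were called lower and their median was -1.31, so Klf2 was lowered less than the median gene. The share of genes without overlap was not taken there.

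Klf4 (chr4:55527143-55532466), its close relative with shared targets, did not follow it. Spinal libraries had 60.4, 68.0, 24.5, 36.1 and 37.8 CPM and meningeal libraries 55.4, 38.1, 42.9, 73.5 and 67.8 CPM. The groups overlapped widely, with a log2 difference of -0.30 (SE 0.26, adjusted p = 0.37 by edgeR). The spinal level was higher in batches 1 and 2 and lower in batches 3, 4 and 5. In batches 4 and 5 alone, Klf4 was lower in the cord by 0.92 on the log2 scale (-0.92, adjusted p = 2.5e-06 by edgeR). That fit had 2 libraries against 2 and called 8793 genes, against 7755 over all 5 batches. The cord was taken whole in batches 4 and 5 only, so dissection and batch cannot be told apart. On the endothelial scale Klf4 was lower over all 5 batches, at -1.64 (SE 0.29, adjusted p = 3.5e-05). The median of all genes there was -1.31.

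The ratio of Klf2 to Klf4 within a library does not depend on how libraries are scaled. It was 2.01, 1.95, 2.79, 4.27 and 3.54 in spinal libraries and 1.44, 1.27, 1.85, 1.58 and 1.45 in meningeal libraries. Every spinal library was above every meningeal one. This ratio was looked at after the levels were seen, so no test is given. Both genes are also immediate early genes that tissue dissociation can raise. The 14 other immediate early genes examined summed to 3161, 4869, 2019, 3186 and 2882 CPM in spinal and 4201, 3431, 3550, 5687 and 5400 CPM in meningeal libraries, with 0 genes higher, 4 lower and 10 not passed. Fos, Fosb, Jun and Egr1 were the 4, at log2 differences of -0.78, -1.23, -0.73 and -0.66, and in batches 1 to 3 only none of them passed (adjusted p = 0.46, 0.1, 0.12 and 0.37). Fos and Egr1 were also lost when some single libraries were left out: both without spinal batch 5 or meningeal batches 4 or 5, and Fos without spinal batches 3 or 4 (adjusted p = 0.053 to 0.083). With the batch as a block Atf3 was higher in the cord (0.77, adjusted p = 0.027, against 0.071 without it), also by DESeq2 and without a filter (adjusted p = 0.04 and 0.049), but at -0.67 on the endothelial scale. Spinal batch 3 had the lowest sum and the lowest Klf4, and the lowest spinal Klf2. The part of dissociation in the levels of Klf2 and Klf4 was not tested.

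**Figure D3:**
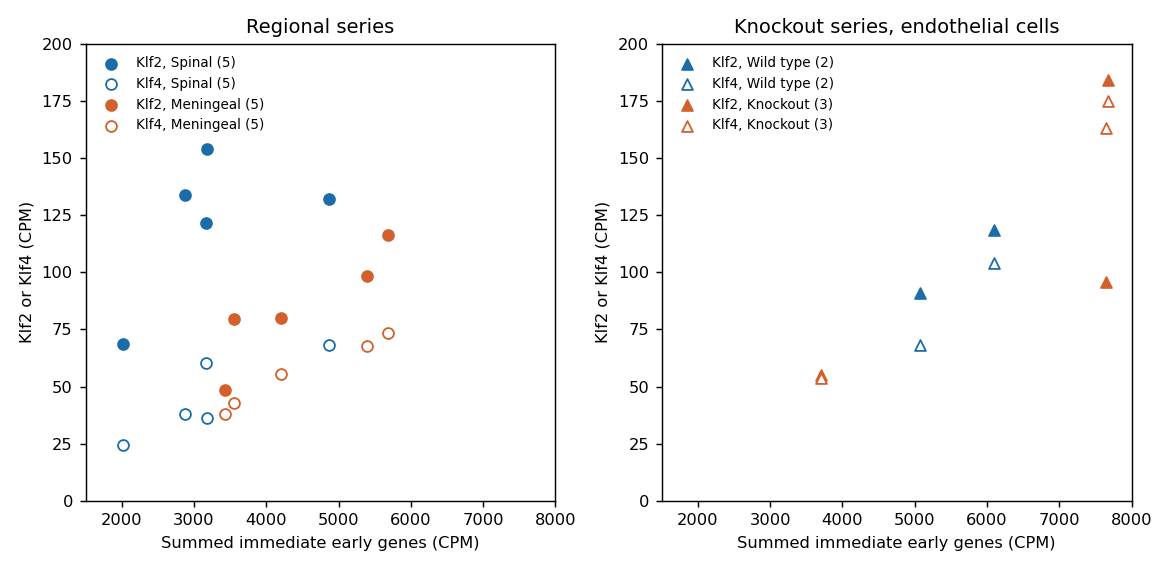
Klf2 (filled) and Klf4 (open) in CPM against the summed CPM of 14 other immediate early genes, 1 point per library, in the regional series (5 spinal, 5 meningeal) and in the endothelial libraries of the knockout series (2 wild type, 3 knockout). The library with the lowest sum has the lowest Klf4 in both series, and outside spinal batch 3 the spinal Klf2 values lie above all meningeal ones, an order that turns around on the scale of endothelial markers.

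Nos3 (chr5:24364810-24384474) encodes endothelial nitric oxide synthase, whose product relaxes vessel muscle, and is a target of KLF2. Its level was 162, 103, 82.6, 192 and 172 CPM in spinal and 31.2, 27.7, 39.9, 68.0 and 47.6 CPM in meningeal libraries. All 5 spinal libraries were above all 5 meningeal ones, as one or the other order held for 36% of genes tested. The log2 difference was 1.73 (SE 0.27, adjusted p = 2.2e-04 by edgeR), higher in 5 of 5 batches. On the endothelial scale it was 0.39 (SE 0.25, 95% interval -0.11 to 0.90, adjusted p = 0.14). The regional counts used strand, so reads of Gm15587 and Atg9b, whose exons lie opposite 25.2% and 7.12% of the Nos3 exon bases, are kept apart there. In the knockout series the counts did not use strand, and such reads cannot be told apart.

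Ptgs1 (chr2:36230426-36252272) encodes cyclooxygenase-1, which makes the precursor of prostacyclin. It stood at 48.2, 75.7, 66.5, 122 and 123 CPM in spinal and at 39.6, 36.6, 41.9, 51.4 and 49.2 CPM in meningeal libraries. The 2 whole-cord libraries were highest, and spinal batch 1 fell within the meningeal range. The log2 difference was 0.99 (SE 0.23, adjusted p = 0.0038 by edgeR), and -0.38 (adjusted p = 0.21) on the endothelial scale. Summed macrophage markers were 1141, 1715, 1397, 3504 and 3426 CPM in spinal and 1873, 1745, 1374, 2700 and 2019 CPM in meningeal batches 1 to 5. The 2 spinal batches with the highest sums had the most Ptgs1, while spinal batches 2 and 3 had lower sums and more Ptgs1 than meningeal batches 1 and 4. The markers split between the regions on the CPM scale. Of the 10, 3 were higher in the cord, 1 lower and 6 did not pass, and 9 were above 0. Mrc1, the lower one, averaged 702 CPM in meningeal and 59.7 CPM in spinal libraries, so the sums are not alike between the regions. Over the 10 libraries the genes whose levels followed Ptgs1 most closely were Runx1, Slc29a3 and Laptm5, at r = 0.99, 0.99 and 0.98 among 12100 genes. Laptm5 is a gene of blood cells. The part of macrophages in the Ptgs1 difference was not tested.

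Thbd (chr2:148404466-148408188) encodes thrombomodulin, which turns thrombin from a clotting into an anticoagulant enzyme, and is raised by KLF2. It was lower in the cord, the opposite of Nos3. Spinal libraries had 22.6, 17.0, 11.1, 19.6 and 19.9 CPM and meningeal libraries 34.8, 34.1, 40.2, 45.7 and 50.6 CPM. The groups did not overlap, and the log2 difference was -1.19 (SE 0.18, adjusted p = 1.4e-04 by edgeR) and -2.57 (adjusted p = 5.7e-08) on the endothelial scale. Procr, the endothelial receptor for protein C, which the thrombin bound to thrombomodulin activates, was at 18.9 and 18.4 CPM in the 2 groups and did not pass (0.04, SE 0.22; adjusted p = 0.91). On the endothelial scale it was at -1.33, where the median of all genes was -1.31.

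Heg1 (chr16:33684370-33771576) had the highest CPM of the members in the cord. Its level was 342, 334, 233, 271 and 265 CPM in spinal and 108, 127, 139, 169 and 146 CPM in meningeal libraries. The groups did not overlap, with a log2 difference of 1.06 (SE 0.14, adjusted p = 5.3e-05 by edgeR) on the CPM scale and -0.26 (SE 0.26, adjusted p = 0.35) on the endothelial scale. Its partners of the CCM complex had small differences on the CPM scale: Krit1 0.31 and Pdcd10 -0.25, both not passed, and Ccm2 -0.31 (adjusted p = 0.023). Ccm2 did not pass without a filter (adjusted p = 0.066) or in batches 4 and 5 only (-0.19, adjusted p = 0.07). Krit1 passed in batches 1 to 3 only (0.45, adjusted p = 0.011 by edgeR) and without spinal batch 4 (0.39, adjusted p = 0.025). On the endothelial scale Krit1 and Pdcd10 were lower (-0.99 and -1.68, adjusted p = 0.0077 and 1.5e-04 by edgeR). The median of all genes there was -1.31. Ccm2l, an endothelial relative of Ccm2, and Rasip1, a Rap1 effector tethered by HEG1, were higher in the cord by 1.59 and 1.15 on the log2 scale. On the endothelial scale neither passed, with Ccm2l at 0.23 and Rasip1 at -0.21 (adjusted p = 0.45 and 0.42 by edgeR). Of 10 genes of this group, 3 were higher, 2 lower and 5 did not pass (median 0.04).

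Slc9a3r2 (chr17:24639286-24650327) was at 117, 118, 72.2, 131 and 121 CPM in spinal and 83.1, 72.7, 94.1, 96.5 and 88.2 CPM in meningeal libraries. Spinal batch 3 lay below all meningeal libraries, and the other 4 spinal libraries lay above all of them. The log2 difference was 0.36 (SE 0.15, adjusted p = 0.061 by edgeR). Without spinal batch 3 it passed at 0.46 (adjusted p = 0.0021), and on the endothelial scale it was lower in the cord at -1.03 (adjusted p = 8.2e-04). The median of all genes on the endothelial scale was -1.31.

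Cyp1b1 (chr17:79706894-79715061) had the largest difference of the 9. It was at 31.1, 13.1, 18.3, 8.65 and 9.81 CPM in spinal and at 204, 227, 196, 271 and 310 CPM in meningeal libraries. The groups did not overlap, and the log2 difference was -3.91 (SE 0.33, adjusted p = 1.3e-06 by edgeR) and -5.16 (adjusted p = 1.2e-09) on the endothelial scale. The 2 whole-cord libraries were the lowest. The genes with the most similar pattern over the 10 libraries were Flrt2, Col8a1 and Col1a2, at r = 0.998, 0.997 and 0.996, and Col1a2, a collagen gene of fibroblasts, is 1 of the 10 fibroblast markers. Those markers were lower in the cord for 10 of 10 genes, and the part of fibroblasts in the Cyp1b1 difference was not tested.

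Edn1 (chr13:42301476-42307990) encodes endothelin-1, a vasoconstrictor that sustained flow lowers. It was the least abundant member in the meninges, with 34 to 119 reads a library. Spinal libraries had 17.5, 16.0, 7.22, 14.0 and 13.7 CPM and meningeal libraries 4.16, 2.10, 3.66, 5.75 and 5.66 CPM. The groups did not overlap. The log2 difference was 1.67 (SE 0.28, adjusted p = 3.5e-04 by edgeR), in the same direction as the flow-raised genes Nos3 and Heg1, and 0.34 (SE 0.33, adjusted p = 0.35) on the endothelial scale. Of the other genes that handle endothelin, Ednra, a receptor of vascular muscle and pericytes, was higher in the cord by 1.48, and Edn3, another endothelin, was lower by 5.39 on the log2 scale (-5.39). The converting enzyme gene Ece1 (0.25) and the receptor gene Ednrb (-0.24) did not pass on the CPM scale. In batches 4 and 5 only, Ednrb was lower in the cord (-1.23, adjusted p = 1.2e-06 by edgeR). On the endothelial scale Ece1 and Ednrb were lower (-1.08 and -1.39, adjusted p = 4.5e-04 and 0.0028 by edgeR), and Ednra did not pass (0.15, adjusted p = 0.63). The median of all genes there was -1.31.

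**Figure D4:**
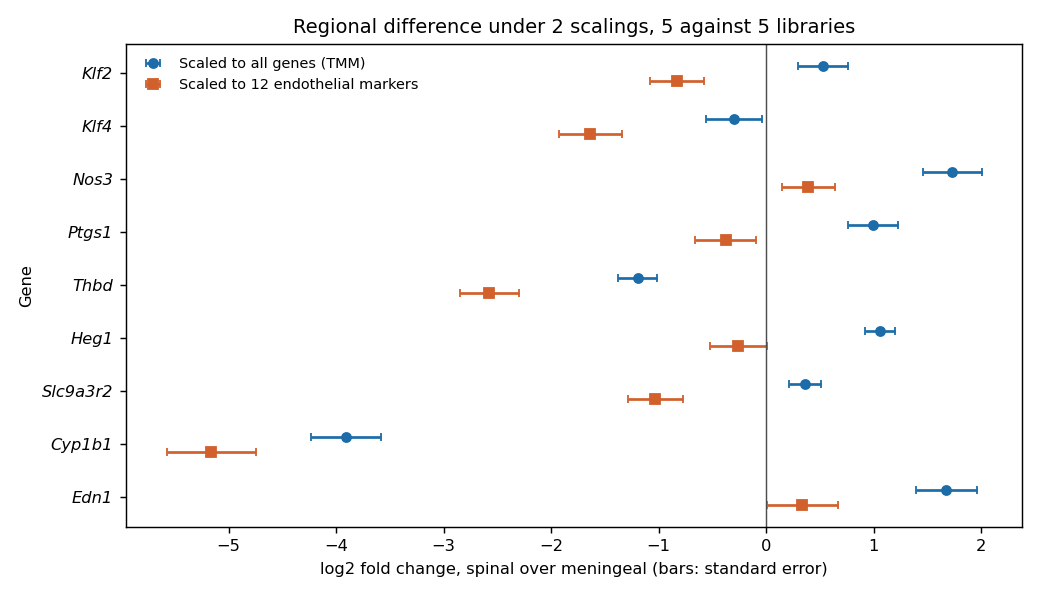
log2 fold change of each gene between 5 spinal and 5 meningeal libraries, with its standard error, with libraries scaled to all genes (circles) or to 12 endothelial markers (squares). Thbd and Cyp1b1 lie below 0 on both scales, Nos3 and Edn1 lie above 0 on both but pass only with the first, and Klf2, Ptgs1, Heg1 and Slc9a3r2 change sign.

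The order of the members also differed between the beds. Per kilobase of exon, spinal libraries had most Klf2 (66.1 ± 17.4 CPM per kb, SD, n = 5), then Slc9a3r2 (46.5 ± 9.51), Nos3 (34.5 ± 11.4), Ptgs1 (30.4 ± 11.8) and Heg1 (27.6 ± 4.48). The last 3 differed by less than their spread. Klf4 came next at 15.0 ± 5.98, and Edn1 (6.41 ± 1.84), Thbd (4.85 ± 1.16) and Cyp1b1 (3.11 ± 1.76) were at the low end, each within the spread of its neighbour. In the meninges Cyp1b1 (46.5 ± 9.20 CPM per kb) and Klf2 (45.8 ± 13.7) were level at the top, followed by Slc9a3r2 (36.1 ± 3.95) and Klf4 (18.3 ± 5.06). Ptgs1, Heg1, Thbd and Nos3 lay between 15.3 and 10.4 CPM per kb, and Edn1 was lowest at 1.99 ± 0.71. Cyp1b1 was thus lowest in the cord and level with Klf2 at the top in the meninges.

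The sensors and kinases upstream of Klf2 were as mixed. Of 16 genes, 8 were higher in the cord, 2 lower and 6 did not pass (median 0.57). Pecam1, Kdr and Flt4, parts of the junctional sensor, were higher by 1.62, 1.502 and 1.68 on the log2 scale. On the endothelial scale these did not pass (0.27, 0.17 and 0.35, adjusted p = 0.29, 0.51 and 0.19 by edgeR). VE-cadherin (Cdh5) had a difference of 0.49 that did not pass (adjusted p = 0.17) and turned to -0.89 on the endothelial scale. Cdh5 passed without spinal batch 3 (0.64, adjusted p = 0.049 by edgeR) and in batches 4 and 5 only (0.53, adjusted p = 0.0023). Pecam1, Kdr and Cdh5 are themselves among the markers whose sum sets the endothelial scale. Their values on that scale are therefore no independent test. Flt4 is not among those markers. Plxnd1 was higher by 0.66 (adjusted p = 0.029), at 611 ± 138 against 387 ± 131 CPM (SD, n = 5 each). Its call was lost when any of spinal batches 1, 4 or 5 or meningeal batches 1, 2, 3 or 5 was left out (adjusted p = 0.051 to 0.083), and its difference turned to -0.66 on the endothelial scale. The channel Piezo1 (-0.12) and the kinase gene Map3k3 (-0.10), which encodes MEKK3, did not pass on the CPM scale. Piezo1 passed in batches 4 and 5 only (-0.21, adjusted p = 0.046 by edgeR). On the endothelial scale, where 77.2% of all genes were called lower, both were lower (-1.47 and -1.46, adjusted p = 2.0e-05 and 3.3e-05 by edgeR). Mapk7, which encodes ERK5, was lower (-0.44, adjusted p = 0.0017). Mef2a, Mef2c and Mef2d, the factors for the motif in the Klf2 promoter, were higher by 1.04, 0.89 and 1.07, and all 3 were below 0 on the endothelial scale (-0.31, -0.45 and -0.26) without passing there.

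Other genes known to be raised by flow did not move as a block. Of 19, 6 were higher in the cord, 11 lower and 2 did not pass (median -0.59). The connexin gene Gja4 was higher by 2.26 while Gja5, another arterial connexin, was at -1.82. Aqp1, a water channel, was at -4.00, Ptgds and Ptgis, a pair of prostaglandin synthases, at -3.65 and -1.63, and the sialomucin gene Podxl at 1.76. On the endothelial scale Podxl did not pass (0.46, adjusted p = 0.08 by edgeR). Of 15 tested genes known to be lowered by flow, 7 were higher, 2 lower and 6 did not pass (median 0.37). Cxcr4, Adm, Apln and Pdgfb were higher in the cord by 3.83, 2.79, 2.59 and 2.04, and Bmp4 was at -3.15. Cxcr4, Apln and Pdgfb are also genes of sprouting tip cells, and Angpt2, a further one, did not pass (-0.55, adjusted p = 0.051). It was lower with the batch as a block (adjusted p = 0.014), by DESeq2 (0.028), with RLE scaling (0.045) and with a filter at 5 CPM (0.045). Both lists held genes of large difference in each direction.

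**Figure D5:**
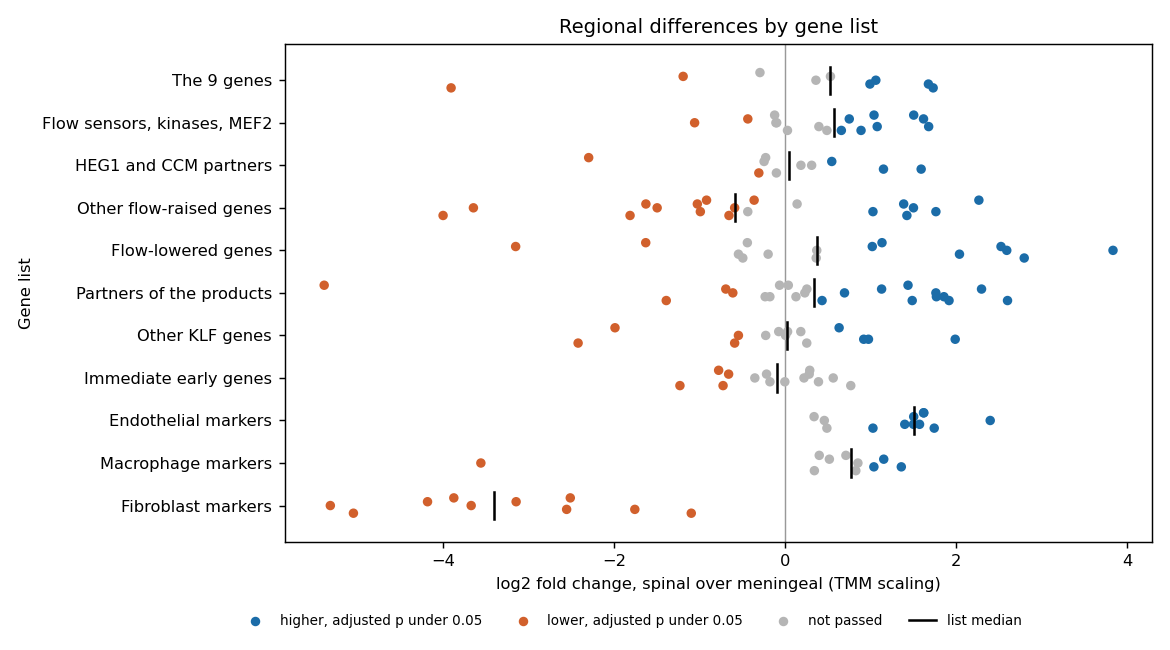
log2 fold change between spinal and meningeal endothelial libraries (TMM scaling) for the tested genes of each list, 1 point per gene, coloured by direction and call, with list medians as black lines. The flow-raised and flow-lowered lists spread to both sides of 0, with medians of -0.59 and 0.37, whereas endothelial markers lie to the right (1.501) and fibroblast markers to the left (-3.41); scaling to endothelial markers shifts all genes by about -1.32.

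Of 22 tested genes encoding partners of the members' products, 11 were higher, 4 lower and 7 did not pass (median 0.34). The higher ones included the subunits of the nitric oxide receptor, Gucy1a1 (1.92) and Gucy1b1 (1.77), the thromboxane receptor Tbxa2r (2.60) and the thrombin receptor F2r (2.30). On the endothelial scale Gucy1a1 and Gucy1b1 did not pass (0.59 and 0.44, adjusted p = 0.062 and 0.18 by edgeR). Of 10 pericyte and smooth muscle genes 6 were higher, among them the pericyte genes Rgs5 (2.28), Cspg4 (2.87) and Abcc9 (3.22), and 4 lower. Anpep, also a pericyte marker and named after its values were seen, was at -1.59, and the smooth muscle genes Acta2, Tagln and Myh11 were at -4.80, -2.78 and -3.53. The part of pericytes in the receptor differences was not tested. Among 14 other KLF genes, 4 were higher, 4 lower and 6 did not pass. Klf6, a further immediate early KLF, was at -0.59 (-0.48, adjusted p = 0.15, in batches 1 to 3 only), and Klf15 and Klf7 were higher by 1.99 and 0.97. On the endothelial scale neither Klf15 (0.83, adjusted p = 0.089 by edgeR) nor Klf7 (-0.33, adjusted p = 0.28) passed.

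Ventral and whole cord were compared by testing whether the regional difference was the same in batches 1 to 3 as in batches 4 and 5. Each dissection has its own batches, so the 2 cannot be told apart. None of the 9 genes passed by edgeR, 3 of them had an unadjusted p under 0.05, and 98 of 17901 genes (0.547%) were called. The closest was Cyp1b1, whose spinal deficit was smaller in the ventral batches by 1.61 on the log2 scale (SE 0.40, adjusted p = 0.071). Klf4 differed by 1.06 (SE 0.47, adjusted p = 0.24) and Ptgs1 by -0.63 (SE 0.23, adjusted p = 0.17). With DESeq2, without a filter or without spinal batch 2, Cyp1b1 passed (adjusted p = 0.006, 1.3e-09 and 0.0065), and Klf4 passed without a filter or without spinal batch 3 (adjusted p = 1.8e-04 and 0.046). Ptgs1 passed without spinal batch 2 (-0.78, adjusted p = 0.047).

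In the knockout series the 9 genes could be compared with and without a shear sensor. The targeted gene, Plxnd1, was at 178 and 213 CPM in the wild-type endothelial libraries and at 18.6, 15.5 and 29.1 CPM in those of the knockout, and at 5.07 to 12.1 and 0.644 to 1.77 CPM in motor neurons. The knockout libraries were below every wild-type library of their cell type. Its log2 difference in endothelial cells was -3.20 (SE 0.26), yet edgeR without a block did not call it (adjusted p = 0.16), so a gene that misses the threshold in this comparison is not shown to be the same in both genotypes. With the batch as a block Plxnd1 was called (-3.04, adjusted p = 5.5e-15).

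No member passed between knockout and wild-type endothelial cells. Of 18209 genes, 0% were called by edgeR (431 at an unadjusted p under 0.05, none of them a member) and 34 by DESeq2, again without a member. With the block, 0.989% of genes were called (180) and 0 of the 9. Adjusted p was 0.999 for all 9 without the block and ranged from 0.32 to 0.997 with it. The median log2 difference was 0.08 over the 9 genes and -0.01 over all genes. For all 9 genes the values of the 2 groups overlapped, whereas 13.9% of all genes had groups that did not.

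Klf2 was at 118 and 90.8 CPM in wild-type batches 1 and 3 and at 184, 95.8 and 54.9 CPM in knockout batches 1, 2 and 3. It was higher in the knockout of batch 1 and lower in that of batch 3. The log2 difference was 0.10 (SE 0.46, 95% interval -0.99 to 1.20), and -0.01 (SE 0.17) with the block. Klf4 was at 104 and 68.4 CPM without and 175, 163 and 53.8 CPM with the knockout (0.60, SE 0.48, 95% interval -0.56 to 1.77). In knockout batch 2 Klf4 was above both wild-type libraries and Klf2 lay between them. The ratio of Klf2 to Klf4 was 1.13 and 1.33 without and 1.05, 0.587 and 1.02 with the knockout, and was not tested. The other immediate early genes summed to 6101 and 5076 CPM in wild-type batches 1 and 3 and to 7670, 7642 and 3698 CPM in knockout batches 1, 2 and 3. Knockout batch 3 was lowest in Klf2, Klf4 and this sum, and their relation was not tested.

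Nos3 had the lowest fitted difference. Wild-type cells had 41.7 and 23.6 CPM and knockout cells 32.6, 12.3 and 18.6 CPM, lower in both batches with a pair. The log2 difference was -0.62 (SE 0.43, 95% interval -1.64 to 0.41), and -0.33 (SE 0.12, adjusted p = 0.32) with the block. Summed endothelial markers were 1660 and 1052 CPM without and 1343, 808 and 1003 CPM with the knockout. Batch 1 had the highest marker sum and the highest Nos3 in each genotype, and their relation was not tested. Thbd was higher in the knockout of both pairs, at 52.6 and 57.5 against 54.6, 76.6 and 74.7 CPM (0.33, SE 0.17, 95% interval -0.07 to 0.73). Its groups overlapped through knockout batch 1.

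The fitted differences of the other members were all smaller than their errors. Heg1 was at 109 and 99.5 CPM without and 108, 88.8 and 132 CPM with the knockout (0.08, SE 0.17), and Cyp1b1 at 226 and 198 against 170.1, 181 and 253 CPM (-0.06, SE 0.19). Slc9a3r2 (-0.15, SE 0.17), Ptgs1 (-0.07, SE 0.23) and Edn1 (0.15, SE 0.33) differed by less than their errors. On the scale of endothelial markers none passed either (adjusted p = 0.88 for each of the 9, with 0.0604% of all genes called), with Klf4 at 1.01 and Nos3 at -0.29.

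Of the 16 upstream genes, 0 passed in the endothelial knockout without the block. That fit called 0 of 18209 genes and the 16 include Plxnd1 itself, so this count cannot show them unchanged. Map3k3, Mapk7, Piezo1 and Mef2c were at 0.02, 0.02, -0.003 and -0.08. With the block Plxnd1 was called and the others were not. Of 19 tested flow-raised genes the block also called Aqp1 and Hmox1 (adjusted p = 0.0028 and 0.013 by edgeR). Of 15 tested flow-lowered genes it called Apln and Ccl2 (0.0083 and 4.5e-04). Without the block these genes were at 0.99, -0.49, 0.44 and -0.56 and did not pass. The block fit called 0.989% of all 18209 genes. Only 2 batches held both genotypes, and that fit had 1 residual degree of freedom, so these calls rest on little replication. In motor neurons, 0 of 9 passed, as against 0.012% of 16695 genes (190 at an unadjusted p under 0.05, none of them a member). Their log2 differences lay between -0.37 for Edn1 and 0.28 for Thbd, with 8 to 524 reads a gene and library. The difference of the knockout effect between the cell types was tested in 1 fit of 11 libraries, and passed for 0 of the 9 genes and 0% of 19266, with 352 genes at an unadjusted p under 0.05. DESeq2 called 1 gene there, which was no member.

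Genes whose levels followed a member most closely over the 10 regional libraries were taken as a description, since those libraries fall into 2 groups and share depth and cell mixture. Klf2 was followed by Lnx2 and Frmd8 at r = 0.98, then Pip5k1a, Tsc22d4 and Acvr1 at 0.98, 0.97 and 0.97. Klf4 was followed by Mob3c (0.96), Mest (0.95) and Atl3 (0.94). Nos3 had Lsr, Arhgap27 and the endothelial receptor Tie1 at 0.996, 0.996 and 0.995. Thbd had Slc41a1 (0.99), Ephb4 (0.98) and Efnb2 (0.98), the last 2 being the venous and arterial partners of the ephrin system. Heg1 had Pcnx, Insr and Gpr4 at 0.99, Slc9a3r2 had Cd151, Rras and Esyt1 at 0.96, 0.96 and 0.95, and Edn1 had Ppp1r2, Tmc6 and Tead4 at 0.99, 0.99 and 0.98. No member was among the closest genes of another member.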

How the data were processed

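The deposited values are raw counts of reads per gene, made by the authors with featureCounts 1.6.4 per the file headers, summing exons by gene name on mm10 with GENCODE M22. Per the submitters' processing notes, reads were trimmed with Trimmomatic 0.39 and aligned with STAR 2.5.3a, and DESeq2 is named. Per the file headers, the knockout series was counted without strand and the regional series by strand as read pairs, so levels were not compared between them. Reads with several alignments were not counted.

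The members and gene lists were chosen with earlier results of these data known, so their counts are descriptions. Groups and batches come from the labels. Tests were quasi-likelihood F-tests of edgeR 4.0.16 (R 4.3.3, limma 3.58.1), with TMM scaling, genes kept by filterByExpr (minimum count 10) and Benjamini-Hochberg adjusted p at 0.05 over all genes tested. The scripts were tested on simulated data. CPM are counts over TMM-scaled totals, and CPM per kb divides by exon length. Named list genes were up to 6 called genes per list with the largest regional change, plus genes named for the pathway, and likeness is Pearson r of log2 CPM (prior count 2) over genes of at least 5 CPM. The labels' batch number pairs libraries. Same-batch libraries correlated, after centring, at r = 0.44 and 0.52 in endothelial cells, 0.38, 0.41 and 0.36 in motor neurons, and -0.27, -0.03, 0.30, 0.17 and 0.04 between regions. Alternatives were DESeq2 1.42.0, RLE scaling, no filter, a filter at 5 CPM, the batch as a replicate block, leaving out each library, batches 1 to 3 or 4 and 5 only, the identical library kept, and, added after seeing the data, scaling to 12 summed endothelial markers.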

Additional observations from a re-analysis of the deposited data

Results flagged for a closer look

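Of 18 groups of member values tested for a library far from the others, 1 was singled out, about what chance gives at 1 in 20. Slc9a3r2 was at 72.2 CPM in spinal batch 3, below the other 4 spinal libraries, whose highest was 131 CPM, and the gap to the next was 0.769 of the range. The same library had the lowest spinal Klf2, Klf4, Nos3, Thbd, Heg1 and Edn1 and the lowest summed endothelial markers of its group (2300 CPM).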

How the results depend on the processing

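The 6 genes that differed between regions kept direction and call in each of 17 other settings, the replicate block included. The scaling to endothelial markers is not among the 17. Under it Cyp1b1 and Thbd kept their calls, and Nos3, Edn1, Heg1 and Ptgs1 did not pass. The members called ranged from 6 to 8 when each library was left out. In batches 4 and 5 only, all 9 were called (6 higher, 3 lower), beside 8793 of all genes (4454 higher, 4339 lower). The all-gene regional count was 7755, 7336 with the block, and 7134 to 7904 without 1 library each. Scaling to endothelial markers, added after the data were seen, gave 13503 calls and reversed the sign of Klf2 (-0.83), Heg1 (-0.26), Ptgs1 (-0.38), Slc9a3r2 (-1.03), Plxnd1 (-0.66), Cdh5 (-0.89), Krit1 (-0.99), Rasip1 (-0.21), Stk25 (-0.81), Mef2a (-0.31), Mef2c (-0.45), Mef2d (-0.26), Ece1 (-1.08), Procr (-1.33), Ptgs2 (-0.22), Klf7 (-0.33), Klf10 (-0.41), Klf13 (-0.72), Cx3cr1 (-0.011), Aif1 (-0.42) and Ptprc (-0.17), because it shifts all genes down.

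No alternative called a member in either knockout comparison or in their difference. With the identical library kept, 0 genes were called in the endothelial comparison and in the difference between cell types, as without it. Keeping it places the counts of a knockout library among the wild-type ones. This can only draw the groups together, so the repeated count of 0 is no test. Genes called in the endothelial knockout were 0 by edgeR, 34 by DESeq2, 2 without a filter, 180 with the replicate block, 11 scaled to endothelial markers and 0 to 1 without 1 library. In the motor neuron knockout they were 2, 4 by DESeq2, 4 without a filter, 0 at 5 CPM, 6 with the block and 0 to 1 without 1 library. For the difference between cell types they were 0, 1 by DESeq2 and 0 to 1 without 1 library. For ventral against whole cord they were 98, 1321 by DESeq2, 305 with RLE scaling, 1780 without a filter, 226 at 5 CPM, 4 with the block and 0 to 1190 without 1 library, with 1 member by DESeq2, 2 without a filter and 0 to 2 without 1 library. Endothelial cells against motor neurons gave 12484 and 10113 to 12574 without 1 library, with 9 members throughout. The causes were not tested. Wild-type endothelial cells had 2 libraries, and Edn1 in the meninges had as few as 34 reads, which limits their precision.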
